A study of Mus musculus with 2 samples.

Results

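Mitochondrial chaperones and proteases are nuclear-encoded proteins that fold the polypeptides imported into the organelle and degrade those that fail to fold. The 10 genes described here were taken by symbol as *Hspd1*, *Hspe1*, *Hspa9*, *Trap1*, *Lonp1*, *Clpp*, *Clpx*, *Afg3l2*, *Yme1l1* and *Oma1*. All 10 were found among the 23183 genes measured, and all 10 had a mean of at least 1 FPKM (fragments normalized for transcript length and library size), as had 11231 genes of the series. mRNA of mouse lung cancer cells was sequenced as 2 libraries, 1 labelled KPR- and 1 labelled KPR_restored, so that no difference given here could be set against the spread between cultures.

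The KPR- cells were immortalized from lung cancers of KPRL/F mice that were not given tamoxifen, and whether the libraries come from 1 line or clone is not given in the sources used here. The mice carried a mutant *K-Ras* allele behind a LoxP-Stop-LoxP cassette, floxed *p53* on both chromosomes, 1 floxed and 1 *Frt-Stop-Frt* allele of *Runx3*, a Tomato reporter and Flp fused to a tamoxifen-responsive receptor (*Flp ERT2*). Inhaled adenovirus with Cre under the CMV promoter activated *K-Ras* and deleted *p53* and floxed *Runx3*, which both groups of cells share. In KPR_restored cells 4-hydroxytamoxifen (4-OHT) lets Flp remove the *Frt-Stop-Frt* cassette. The labels give the genotypes as RUNX3 -/- for KPR- and RUNX3 -/+ for KPR_restored, the times as 0 h and 16 h, and 1 μM 4-OHT for both. Restoration of *Runx3*, exposure to 4-OHT and hours in culture cannot be told apart with these libraries.

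*Runx3* was measured at 0.348 FPKM in the KPR- library and at 0.349 FPKM in the KPR_restored library, so its level per gene does not check the labels. Each direction is therefore that of the library labelled KPR_restored against the library labelled KPR-. The spacing of the lowest FPKM values gave a depth of about 21.7 M fragments in KPR- and about 22.3 M in KPR_restored. Among 12 lung epithelial markers 7 were expressed at a mean of 1 FPKM or more, led by keratin genes such as *Krt18* at 1931 and 1676 FPKM, while *Sftpc*, *Sftpb*, *Sftpa1* and *Napsa* were listed at 0 in both libraries and the lung lineage factor *Nkx2-1* stood at 0.0444 and 0.0216 FPKM. The 7 leukocyte markers summed to 3.126 and 6.789 FPKM with 4 of them at 0 in both and nearly all of it *Cd68* (3.08 and 6.78 FPKM), and the 5 endothelial markers to 1.191 and 2.238 FPKM. The 8 fibroblast and mesenchymal markers summed to 1790 and 1469 FPKM, nearly all of it *Vim* (1777 and 1464 FPKM), with *Col1a1* at 12.2 and 4.21 FPKM. The part of these marker differences in the results was not tested.

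In the mitochondrial matrix HSP70 (mortalin, from *Hspa9*) pulls and holds incoming chains, and many of them then fold inside the barrel of HSP60 (*Hspd1*) closed by its lid HSP10 (*Hspe1*). TRAP1 is the organelle's HSP90. The ATP-driven protease LONP1 and the pair of CLPX and CLPP degrade matrix proteins, whereas AFG3L2, YME1L1 and the zinc protease OMA1 sit in the inner membrane. These genes are known for the mitochondrial unfolded protein response, in which stress in the organelle changes transcription in the nucleus through factors such as ATF4, ATF5 and CHOP (*Ddit3*), and OMA1 is known as the protease that signals such stress to the cytosol by cleaving DELE1.

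The stretches of promoter shown next belong to the members that differed most, *Hspd1* with its head-to-head neighbour *Hspe1*, and *Lonp1*. *Hspd1* lies on chromosome 1 of GRCm38 from 55077835 to 55088243 (minus strand) and *Hspe1* on the same chromosome from 55088132 to 55091307 (plus strand), so that their annotated starts are 111 bases apart and first exons of the pair overlap on opposite strands. *Lonp1* lies on chromosome 17 from 56614297 to 56626887 (minus strand). Capitals mark a run of heat shock elements (GAANNTTC and TTCNNGAA, sharing bases) in the first stretch and an E-box (CACGTG), the site of MYC and related factors, in the second. Both are written 5′ to 3′ on the strand of the named gene, with RefSeq sequence of GRCm38.p6.
*Hspe1*, chr1:55088053-55088082, plus strand: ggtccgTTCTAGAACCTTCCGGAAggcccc
*Lonp1*, chr17:56626904-56627053, minus strand: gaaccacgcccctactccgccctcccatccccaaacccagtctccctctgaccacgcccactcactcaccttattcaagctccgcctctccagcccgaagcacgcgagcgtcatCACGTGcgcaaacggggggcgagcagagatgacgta
The first stretch covers bases -95 to -66 from the RefSeq start of *Hspe1*, lies upstream of 1 of the RefSeq starts of *Hspd1* as well, and is exonic in the *Hspd1*-202 transcript. The second covers bases -150 to -1 of *Lonp1* and overlaps no annotated exon.

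Windows from 250 bases before to 50 bases after a RefSeq start were at hand for 8 of the 10 members, as 9 windows of 32851 in all, and motifs were searched on both strands. *Hspa9* and *Afg3l2* had no window and were not searched. GAANNTTC was found in 7.86% of all windows and, among the members, in those of *Hspd1* and *Hspe1*, where the 2 windows share the same DNA. TTCNNGAA was found in 8.52% of all windows and in those of *Hspd1*, *Hspe1* and *Clpp*. The CHOP-type core TGCAAT was found in 8.4% of all windows and again in the DNA shared by *Hspd1* and *Hspe1*. The composite C/EBP-ATF element TGATGNAAT was found in 0.965% of all windows and in 0 of the 8 members searched.

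The E-box was present in 7.15% of all windows and in those of *Lonp1* and of *Hspd1*, there in the window that does not hold the heat shock elements. The ETS-type site CCGGAAG, which overlaps the heat shock elements of the *Hspd1* and *Hspe1* windows, was present in 8.86% of all windows and in those of *Hspd1*, *Hspe1*, *Yme1l1* and *Clpp*. GCATGCGC, a core of the nuclear respiratory factor 1 site, was present in 2.71% of windows and in that of *Clpx*, and the cAMP response element TGACGTCA in 1.79% and in that of *Trap1*. The RUNX core TGTGGT was present in 16.8% of windows and in that of *Oma1*, while its longer form TGTGGTT, in 5.27% of all windows, was found in 0 of the 8 members searched. These matches describe letters in the windows and do not show that a factor binds there.

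Levels of the 10 genes spanned from 12.2 to 676 FPKM in the KPR- library, with chaperones at the top and the unfoldase gene *Clpx* and *Oma1* at the bottom. In the KPR- library *Hspd1* was followed by *Hspe1*, *Hspa9*, *Lonp1*, *Trap1*, *Clpp*, *Yme1l1*, *Afg3l2*, *Oma1* and *Clpx*. The 95% Poisson limits, which cover counting error only, overlapped between *Trap1* and *Clpp*, between *Clpp* and *Yme1l1*, and between *Oma1* and *Clpx*, so these neighbours could not be ordered at this depth. In the KPR_restored library *Hspa9* stood above *Hspe1*, and *Clpx* above *Oma1*, in both cases with limits that did not overlap. There the limits overlapped between *Clpp* and *Yme1l1* and between *Yme1l1* and *Trap1*.

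**Figure D1:**
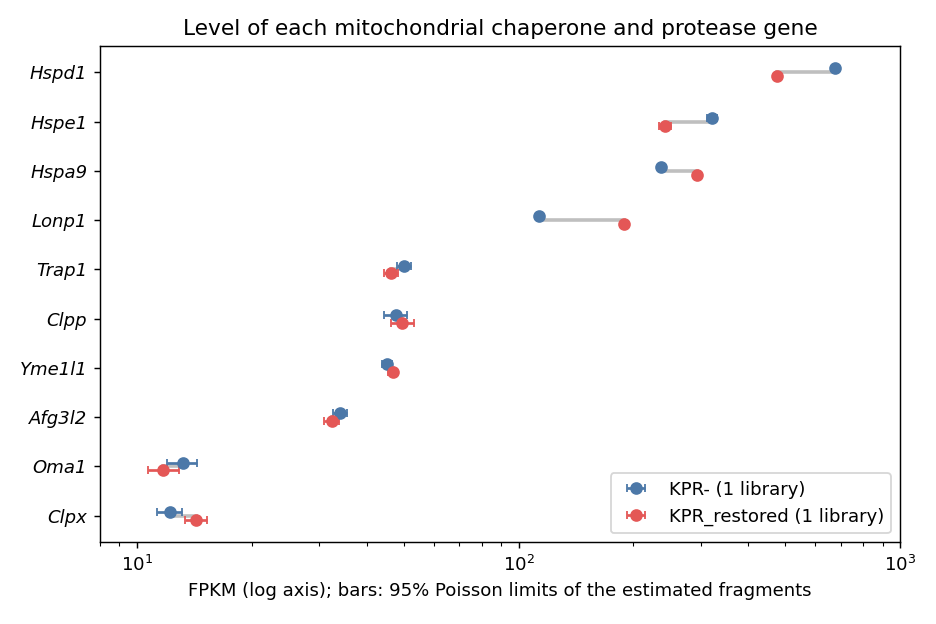
Level of each of the 10 genes in FPKM (log axis) in the KPR- library and in the KPR_restored library, 1 library each, with bars for the 95% Poisson limits of the estimated fragments. *Lonp1* moved from 113 to 189 FPKM and *Hspd1* from 676 to 475 FPKM. For *Clpp*, *Yme1l1* and *Afg3l2*, each on its own row, the points of the KPR- and KPR_restored libraries nearly coincide.

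Differences were taken as log2(FPKM + 0.005) in KPR_restored minus KPR-, and a gene was called higher or lower where the difference reached 0.5 either way. By this rule of size *Lonp1* rose, *Hspd1* fell and the other 8 members lay between. Of all expressed genes 12.1% were called higher and 9.29% lower, so 1 of 10 in each direction is close to what the series as a whole showed. The median difference of the members was -0.01, against 0.0086 over all 11231 genes. The 95% counting interval of the difference, from estimated fragments, excluded 0 for 6 of the 10 members, 3 above and 3 below, where it did so for 67.2% of the expressed genes with estimated fragments. The members did not move as a group, and their values are given one by one.

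*Hspd1*, which encodes HSP60, was measured at 676 FPKM in KPR- and at 475 FPKM in KPR_restored, from about 32498 and 23497 fragments. It fell by 29.7% (log2 difference -0.51, counting interval -0.53 to -0.48), and the interval reaches both sides of the threshold. With bulk RNA, fewer cells of a kind and less RNA per cell cannot be told apart. Only 9.02% of the expressed genes had a smaller (more negative) difference. *Hspe1*, for the HSP10 lid, was measured at 322 and 243 FPKM from about 3932 and 3051 fragments, a log2 difference of -0.41 with an interval of -0.48 to -0.34, just inside the threshold.

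Barrel and lid of the chaperonin were thus lower in the library labelled KPR_restored by similar amounts. The FPKM ratio of *Hspd1* to *Hspe1* was 2.1 in KPR- and 1.96 in KPR_restored, a log2 change of -0.1 with an interval of -0.17 to -0.03. Together the pair made up 64.4% of the FPKM summed over the 10 members in KPR- and 51.2% in KPR_restored. GENCODE M21 names 5 pseudogenes for *Hspd1*, 6 for *Hspe1* and 1 for *Hspa9*, 0 of which are rows of the deposited values, and how reads that fit both gene and copy were shared is not given in the sources used here. Nor is the strand setting of the estimate, so reads from the overlapping first exons of *Hspd1* and *Hspe1* may not be separable.

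*Hspa9*, on chromosome 18 from 34937414 to 34954357 (minus strand), encodes mortalin, the HSP70 of the matrix and the motor of protein import. It was measured at 236 FPKM in KPR- and at 294 FPKM in KPR_restored, from about 14573 and 18658 fragments. The difference of 0.32 (interval 0.28 to 0.35) was under the threshold and opposite in sign to that of the chaperonin pair, with 21.6% of the expressed genes showing a larger one. *Trap1*, on chromosome 16 from 4039971 to 4077827 (minus strand), had 50.1 and 46.3 FPKM, a difference of -0.11 with an interval of -0.2 to -0.03.

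The 4 chaperone genes together summed to 1284 FPKM in KPR- and 1059 FPKM in KPR_restored, a log2 ratio of -0.28 that the abundant chaperonin pair dominates. The 6 protease genes summed to 265 and 344 FPKM, a log2 ratio of 0.37. In the first group 3 of the 4 genes had a lower value in KPR_restored, while in the second the sum follows mainly from *Lonp1*.

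*Lonp1*, which encodes the LON protease of the matrix, was measured at 113 FPKM in KPR- and at 189 FPKM in KPR_restored, from about 6739 and 11566 fragments. It rose by 66.9% (log2 difference 0.74, counting interval 0.7 to 0.78), the largest difference among the 10 members. Among the expressed genes 5.8% had a larger difference. By level it moved from rank 743 to rank 415 of the expressed genes.

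*Clpp*, the peptidase that degrades what CLPX unfolds, lies 363417 bases from *Lonp1* on chromosome 17, from 56990305 to 56996188 (plus strand). It had 47.7 and 49.6 FPKM, a difference of 0.06 with an interval of -0.08 to 0.2. Its unfoldase *Clpx*, on chromosome 9 from 65294260 to 65330658 (plus strand), had 12.2 and 14.3 FPKM, a difference of 0.23 (interval 0.08 to 0.38). When fragments were counted over its shortest coding transcript instead, they came to about 97 and 117, and the interval of -0.17 to 0.63 held 0.

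The matrix proteases therefore did not move as one. The ratio of *Lonp1* to *Clpp* was 2.37 in KPR- and 3.81 in KPR_restored, a log2 change of 0.68 with an interval of 0.54 to 0.83. The ratio of *Clpp* to *Clpx* was 3.91 and 3.47, a change of -0.17 whose interval of -0.37 to 0.03 held 0.

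The 3 inner membrane proteases summed to 92.4 and 90.9 FPKM. *Afg3l2*, the m-AAA protease subunit that faces the matrix, lies on chromosome 18 from 67404764 to 67449172 (minus strand) and had 34 and 32.4 FPKM, a difference of -0.07 with an interval of -0.16 to 0.02. *Yme1l1*, the i-AAA protease that faces the intermembrane space, was measured at 45.2 and 46.8 FPKM (chromosome 2, 23156369 to 23199260, plus strand), a difference of 0.05 with an interval of -0.01 to 0.11. *Oma1*, the stress-activated zinc protease, was measured at 13.2 and 11.7 FPKM (chromosome 4, 103313812 to 103371868, plus strand), a difference of -0.17 with an interval of -0.36 to 0.02.

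A difference from 0 was not detectable for any of the 3 at this depth. OMA1 and YME1L1 both cleave the fusion protein OPA1, and the ratio of *Oma1* to *Yme1l1* was 0.292 in KPR- and 0.251 in KPR_restored, a log2 change of -0.22 with an interval of -0.41 to -0.02. AFG3L2 forms mixed rings with paraplegin (*Spg7*), whose level went from 35.8 to 27.4 FPKM, and the ratio of *Afg3l2* to *Spg7* changed by 0.32 (interval 0.19 to 0.45). *Afg3l1*, a mouse paralog, had 30.8 and 28.4 FPKM, with no detectable change of its ratio to *Afg3l2* (0.05, interval -0.07 to 0.16).

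**Figure D2:**
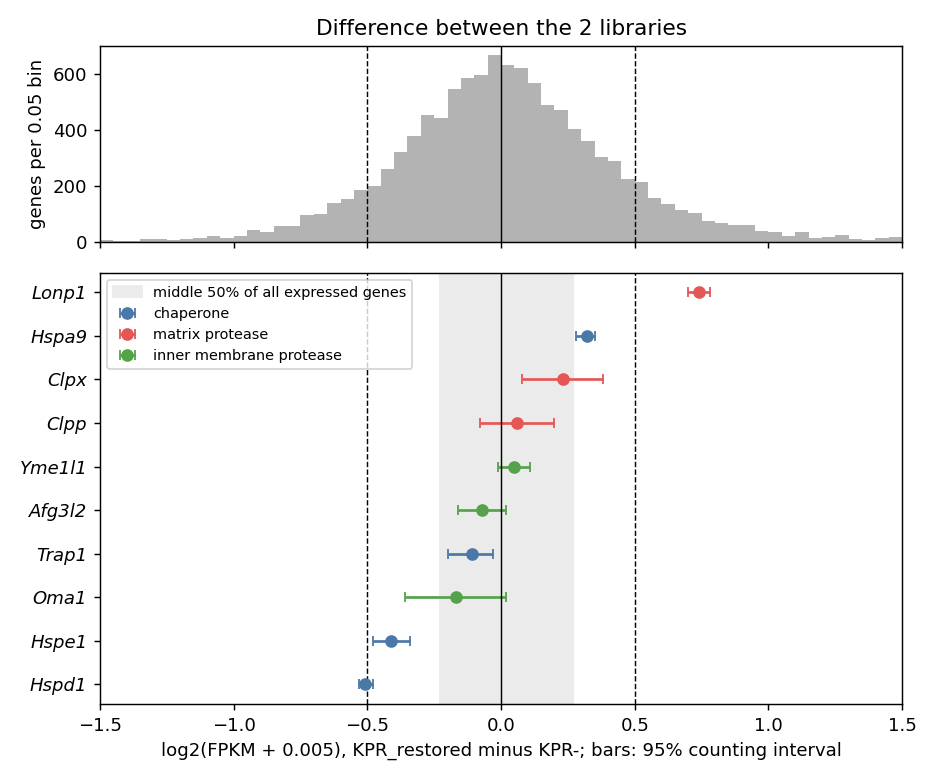
Upper panel, the number of expressed genes by log2 difference in bins of 0.05 between -1.5 and 1.5; lower panel, the difference of each member with its 95% counting interval, coloured by role. *Lonp1* at 0.74 lies past the dashed line at 0.5 and *Hspd1* at -0.51 on the line at -0.5, while 6 members lie within the shaded middle 50% of genes (-0.23 to 0.27).

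*Hspa9*, *Trap1*, *Hspd1* and *Lonp1* have relatives in other compartments, with which they were compared by ratio. The cytosolic HSP70 *Hspa8* had 2068 FPKM in KPR- and 1489 FPKM in KPR_restored, and the HSP70 of the endoplasmic reticulum (ER), *Hspa5*, had 496 and 376 FPKM, so both were lower where *Hspa9* was higher. The ratio of *Hspa9* to *Hspa8* changed from 0.114 to 0.198 (log2 change 0.79, interval 0.76 to 0.82) and that to *Hspa5* from 0.477 to 0.783 (0.71, interval 0.67 to 0.76). At 294 against 376 FPKM, the matrix and the ER member of the family were thus nearer to each other in the KPR_restored library.

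Among the HSP90 genes *Trap1* had the smallest difference. The ER member *Hsp90b1* fell from 625 to 340 FPKM (-0.88), and the cytosolic *Hsp90ab1* and *Hsp90aa1* had differences of -0.33 and -0.27. The ratio of *Trap1* to *Hsp90b1* changed by 0.76 (interval 0.68 to 0.85), and those to *Hsp90ab1* and *Hsp90aa1* by 0.21 (0.13 to 0.3) and 0.16 (0.07 to 0.25). For the chaperonins the order was the other way round. *Tcp1*, a subunit of the cytosolic chaperonin TRiC, had 201 and 189 FPKM, and the ratio of *Hspd1* to *Tcp1* went from 3.37 to 2.51, a change of -0.42 with an interval of -0.47 to -0.38.

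*Lonp2*, the LON protease of peroxisomes, had 13.4 and 17.1 FPKM, a difference of 0.35 in the same direction as *Lonp1* but smaller. The ratio of *Lonp1* to *Lonp2* changed from 8.44 to 11.1 (log2 change 0.39, interval 0.25 to 0.53). *Clpb*, a mitochondrial disaggregase of the same AAA superfamily as *Clpx*, had 17.1 and 16.6 FPKM, and the ratio of *Clpx* to *Clpb* changed by 0.27 (interval 0.1 to 0.45).

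**Figure D3:**
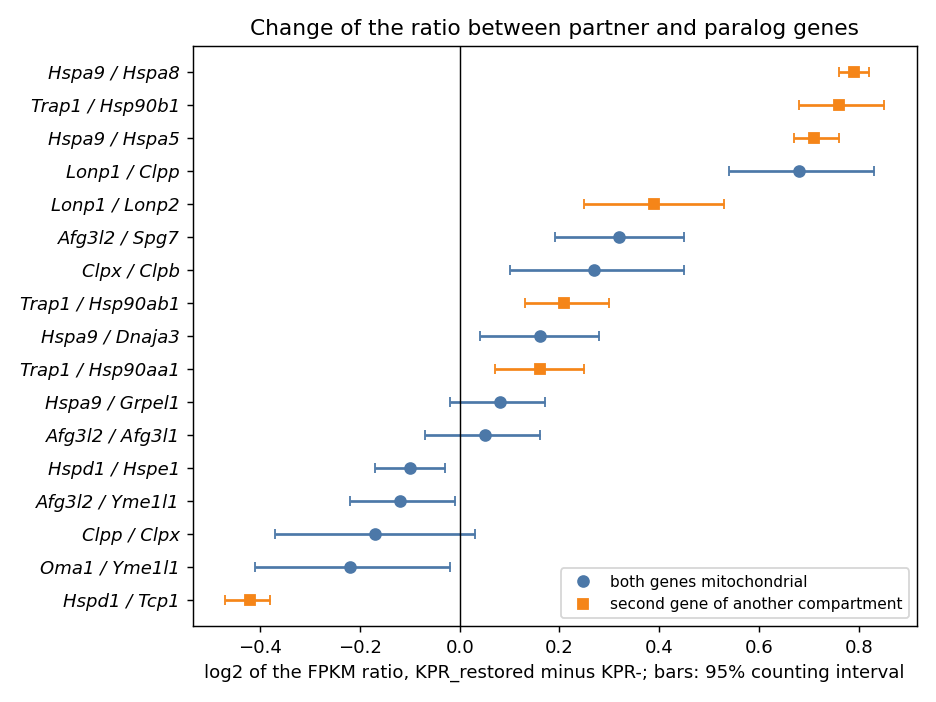
Log2 change of the FPKM ratio between 2 genes from the KPR- to the KPR_restored library, with the 95% counting interval; circles are pairs within the mitochondrion and squares pairs with a gene of another compartment. The ratios of *Hspa9* to *Hspa8* (0.79) and *Trap1* to *Hsp90b1* (0.76) changed most, and that of *Hspd1* to *Tcp1* (-0.42) went the other way.

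The other chaperones and co-chaperones of the organelle were described with a list of 14 genes, all expressed. Of these 2 were called higher and 0 lower, with a median of -0.03. The counts of this and the later lists stand beside 12.1% higher and 9.29% lower over all expressed genes. *Grpel2*, a nucleotide exchange factor of mortalin, rose from 7.02 to 14.1 FPKM (log2 difference 1.01, interval 0.86 to 1.15), and *Hscb*, a J protein of iron-sulphur cluster assembly, rose from 9.64 to 14.4 FPKM (0.58, interval 0.25 to 0.92). The prohibitin genes *Phb* and *Phb2*, whose ring scaffolds the inner membrane proteases, were both somewhat lower in KPR_restored, *Phb* at 133 and 111 FPKM (-0.27) and *Phb2* at 236 and 202 FPKM (-0.22).

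For 2 further partners of mortalin the ratio to it was taken as well. The exchange factor *Grpel1* had 25.7 and 30.3 FPKM, and the ratio of *Hspa9* to it changed by 0.08 with an interval of -0.02 to 0.17. The J protein *Dnaja3* had 21.9 and 24.4 FPKM, and the ratio of *Hspa9* to it changed by 0.16 with an interval of 0.04 to 0.28.

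Of 14 other mitochondrial proteases, all expressed, 0 were called higher and 2 lower, and 11 had a difference below 0, with a median of -0.13. *Atp23* (listed under its older symbol *Xrcc6bp1*), a metalloprotease of the intermembrane space, fell from 7.67 to 5.17 FPKM (-0.57, interval -0.97 to -0.19), and *Metap1d*, a mitochondrial methionine aminopeptidase, fell from 11.1 to 7.64 FPKM (-0.54, interval -0.82 to -0.27). *Pmpcb*, the catalytic subunit of the mitochondrial processing peptidase, had 61.9 and 68.2 FPKM, a difference of 0.14, and *Immp2l* had 1.99 and 2.14 FPKM, a difference of 0.1. Over all expressed genes the shares were 12.1% higher and 9.29% lower, and a difference of this short list from them was not tested.

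The 24 genes of the import machinery (TOM, TIM and intermembrane space relay) held 0 calls in either direction, with differences from -0.36 for *Timm21* to 0.24 for *Timm8b* and a median of -0.03. *Timm21* had 11.8 and 9.18 FPKM and *Timm9* 20.3 and 17.1 FPKM, while *Timm8b* had 62.1 and 73.3 FPKM and *Timm17b* 13.5 and 15.3 FPKM.

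Substrates and partners of the proteases were covered by a list of 19 genes, of which 3 were called higher and 0 lower, with a median of 0.07. *Chchd10*, for an intermembrane space protein, rose from 5.37 to 11.5 FPKM (1.1, interval 0.72 to 1.48) and *Mff*, the fission receptor, rose from 21.1 to 31.2 FPKM (0.57, interval 0.44 to 0.7). *Opa1*, the substrate of OMA1 and YME1L1, had 15.7 and 12.6 FPKM, a difference of -0.32, and *Stard7*, a lipid transfer protein, had 32.2 and 23.2 FPKM, a difference of -0.48. The third gene called higher was *Pink1*, a mitophagy kinase, at 5.7 and 8.71 FPKM, named after its value was seen.

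ATF4-type stress signalling was covered by a list of 17 genes, with *Dele1*, *Eif2ak1*, ATF factors and targets, of which 16 were expressed. Of these 12 were called higher and 0 lower, with a median of 1.65, where the members had a median of -0.01. The list does not tell stress of mitochondria from other stress, and the source of these differences was not tested. *Atf5*, a transcription factor that is imported into mitochondria and has *Hspd1*, *Hspa9* and *Lonp1* among its reported targets, rose from 11.9 to 53.1 FPKM (2.16, interval 2.01 to 2.32). *Ddit3*, for CHOP, rose from 12.3 to 52.8 FPKM and *Atf4* rose from 145 to 446 FPKM, differences of 2.11 and 1.62. The related factors *Cebpb* and *Atf3* rose from 48.2 to 132 FPKM and from 2.69 to 21.3 FPKM.

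*Mthfd2* and *Shmt2*, for enzymes of mitochondrial one-carbon metabolism, rose from 31.1 to 99.5 FPKM and from 109 to 224 FPKM. *Gdf15*, a secreted stress signal, rose from 1.88 to 28 FPKM, and *Fgf21*, another, was listed at 0 in KPR- and at 0.484 FPKM in KPR_restored. *Chac1*, *Trib3*, *Asns* and *Psat1* had differences of 3.9, 3.86, 2.39 and 0.91, and *Phgdh* had one of 0.25. The genes between OMA1 and ATF4 had no called difference. *Dele1* (listed as *0610009O20Rik*), the substrate of OMA1, had 15 and 13.3 FPKM (-0.17, interval -0.33 to -0.01). *Eif2ak1*, for the kinase HRI that DELE1 activates, had 24.3 and 20.7 FPKM (-0.23, interval -0.32 to -0.14). Cleavage of DELE1 and activity of HRI were not measured. *Hsf1*, the master factor of the heat shock response, had 36.5 and 36.4 FPKM.

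ER and cytosolic chaperones served as a comparison with other compartments. Of 15 ER chaperones, all expressed, 1 was called higher and 10 lower, with a median of -0.72. *Calr* fell from 675 to 314 FPKM and *Sdf2l1* fell from 28.4 to 14.5 FPKM, while *Dnajb9* rose from 9.1 to 16 FPKM and *Sil1* had 11.2 and 12.5 FPKM. Of 23 cytosolic chaperones 3 were called higher and 2 lower, with a median of -0.1. *Hsph1* fell from 135 to 86.7 FPKM and *Hspa1b* fell from 35.5 to 23.2 FPKM, the latter a near copy of *Hspa1a* whose reads may be shared, while *Hspb1* rose from 36.7 to 67 FPKM and *Hspa2* rose from 5.72 to 11.2 FPKM.

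Of the 10 members 5 had a difference above 0 and 5 below. The lists are values of 2 libraries set side by side, with no test of the difference between them.

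**Figure D4:**
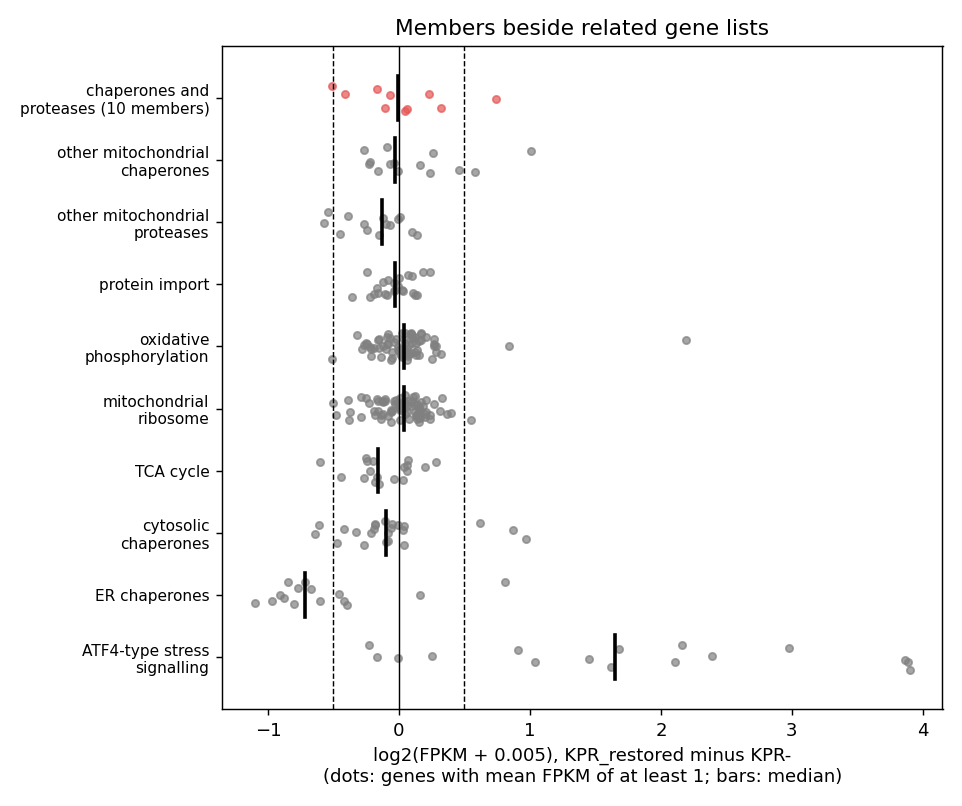
Log2 difference of each gene with a mean of at least 1 FPKM, by list, with a bar at the median and dashed lines at -0.5 and 0.5. The 10 members, in red, straddle 0 with a median of -0.01, the ER chaperones have a median of -0.72 and the ATF4-type stress list one of 1.65.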

How the data were processed

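Poly(A) RNA of 2 cultures, 1 library per condition, was sequenced as directional paired-end libraries. After trimming of adapters and poor bases, the authors aligned with TopHat (mm10, per the submitters' processing notes) and deposited FPKM values from Cufflinks. Their methods also name a geometric normalization, and whether it was applied to these values is not given. Versions and the annotation are not given in the sources used here. Because the deposited FPKM are not counts and there were no replicates, no test was run and no p-value computed. Differences were log2(FPKM + 0.005), KPR_restored minus KPR-, with a threshold of 0.5 and a filter on a mean FPKM of at least 1 for lists. The added 0.005 shrinks changes of low genes only slightly. Genes listed at or near 0 can still have large and uncertain differences, as *Fgf21* (6.61, lower limit of the counting interval 0.73).

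Depth came from the steps of low FPKM values in 3000 genes of 1 GENCODE M21 transcript. The FPKM of a single fragment in KPR_restored was 0.972 of that in KPR-, the mean fragment length was 212 bases, and 77.7% (KPR-) and 80.5% (KPR_restored) of the values from 0.5 to 5.5 fragments lay within 0.1 of a whole number. Fragments used the longest transcript with a RefSeq counterpart. Of 23183 symbols 22156 matched GENCODE directly and 655 through a synonym. Counting intervals (95%) are Clopper-Pearson limits for differences, Poisson limits for levels and the delta method for ratios, and they cover counting error only. The depth fit and the intervals were run on simulated Poisson counts of genes of 1 transcript with known length. That run covers neither the choice of transcript nor the spread between cultures.

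The members, lists and thresholds were chosen with earlier results of these data known. The genes named were the members, the genes paired with them, the stress list, *Runx3*, and, per list, the 2 genes that rose and the 2 that fell most on the log2(FPKM + 1) scale, with *Pink1* as an exception. The head-to-head neighbours and pseudogenes were looked up after the values were seen. Alternatives were other pseudocounts, thresholds, filters, scalings and transcript lengths. Computation was in Python 3.11.15 with scipy 1.17.1, pandas 2.3.3 and numpy 2.4.6, and plots in matplotlib 3.10.9.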

Additional observations from a re-analysis of the deposited data

How the results depend on the processing

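No paired analysis was possible because each condition has 1 library, and for the same reason no replicate could be left out. Under pseudocounts of 0.1 and 1, scaling to the same total or upper quartile, and centring on the median gene, *Lonp1* was the 1 member called higher and *Hspd1* the 1 called lower, and in 0 of 50 alternative values did a member's difference change sign. Scaling to the same upper quartile moved *Hspd1* to -0.55 and *Hspa9* to 0.27, beyond their counting intervals, and moved the median of all expressed genes to -0.033. A threshold of 1 left 0 members called higher and 0 lower, and one of 0.25 gave 2 higher and 2 lower, by construction. None of the 77 alternative list medians moved by more than 0.077, the tolerance set for all lists. None of the 17 ratio changes moved beyond its counting interval with a pseudocount of 1. Both outcomes follow largely by construction. The scalings shift all genes nearly alike, by at most 0.042 for a member, and a pseudocount of 1 is small beside the paired genes. Depth limits *Oma1*, *Clpx* and *Clpp* most, with about 446 to 856 fragments per library.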

Other observations

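Among the oxidative phosphorylation and mitochondrial ribosomal genes listed here, calls were fewer than over all expressed genes (12.1% higher and 9.29% lower). That difference was not tested. Of 75 nuclear-encoded subunits of oxidative phosphorylation, all expressed, 2 were called higher and 1 lower, with a median of 0.04, and of 77 mitochondrial ribosomal proteins 1 was called higher and 1 lower, also with a median of 0.04. *Ndufs5*, a subunit of complex I, rose from 2.02 to 9.25 FPKM (2.19, interval 1.33 to 3.12). It had the lowest level of the 75 subunits in both libraries, and how its reads were assigned was not checked. *Uqcrq*, of complex III, rose from 224 to 401 FPKM (0.84, interval 0.8 to 0.88), while *Ndufb5* fell from 43.5 to 30.5 FPKM and *Ndufa5* had 87.6 and 70.4 FPKM. Among the ribosomal proteins *Mrps31* rose from 15 to 21.9 FPKM, *Mrpl43* had 48.9 and 64.8 FPKM, *Mrps28* fell from 32.3 to 22.8 FPKM and *Mrpl18* had 79.1 and 56.8 FPKM.

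Of 18 TCA cycle enzymes 0 were called higher and 1 lower, with a median of -0.16. *Suclg2*, a subunit of succinyl-CoA ligase, fell from 31.7 to 21 FPKM and *Ogdh* had 40.2 and 29.6 FPKM, while *Sdhc* had 73 and 88.4 FPKM and *Dld* 64.6 and 74.2 FPKM. Of 13 biogenesis factors 11 were expressed and 0 were called, with a median of -0.09. *Esrra* had 25 and 30.7 FPKM, *Gabpb1* 13.8 and 15.3 FPKM, *Polrmt* 17.9 and 14.8 FPKM and *Pprc1* 32.5 and 27 FPKM.

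Besides the *Hspd1* and *Hspe1* pair, 2 members have a gene that starts on the other strand within 1500 bases. *Mastl*, 345 bases from the start of *Yme1l1*, had 10.6 and 10.3 FPKM (-0.04, interval -0.15 to 0.08), and *Catsperd*, 1256 bases from the start of *Lonp1*, had 0.369 and 0.735 FPKM from about 19 and 39 fragments (0.99, interval 0.17 to 1.87).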
